A study of Mus musculus with 1094 samples.

Results

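Basal progenitors of the mouse dorsal cortex shortly before birth, at embryonic stage E18.5 (BP E18.5), were examined as single cells. All deposited cells of this population and day with at least 1000 genes at 1 TPM or more were taken, which gave 61 of 62 cells, out of 1094 cells in the series. TPM is a transcript abundance per cell, corrected for transcript length and scaled to the cell's total, so levels can be set side by side between genes. The cell left out had 980 genes, and the kept cells with the fewest genes had 1698 and 1906. The same minimum kept 79 of 89 basal progenitors at E16.5, 75 of 76 at P0 and 66 of 70 newborn neurons (NBN) at E18.5.

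The labels describe all these cells as wild-type C57Bl/6, labelled female, from dissected dorsal cortex. Basal progenitors and newborn neurons were sorted as green cells from Tbr2::GFP animals, in which the promoter of Tbr2 (Eomes) drives the reporter, and cells were captured on a microfluidic C1 array. The neural stem cells of the series came from Hes5::GFP animals. The reporter protein can outlast Eomes transcription, and the labels do not say how BP and NBN were separated, nor how many animals gave the cells. The P0 cells carry an age label of 1 day.

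Basal progenitors, also called intermediate progenitors, arise from radial glia, move away from the ventricle and divide to give pairs of projection neurons. Neurog2 induces Eomes, and these factors, with Insm1 and Neurod1, drive cells toward the neuronal program while Notch target genes such as Hes1 and Hes5 stay low. Neurons of the deep layers, marked by Fezf2, Bcl11b, Tbr1 and Foxp2, are born before those of the upper layers, marked by Cux1, Cux2, Pou3f2 and Pou3f3.

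BP E18.5 was 1 library, as were BP E16.5, BP P0 and NBN E18.5, with no animal or batch named. Cells of 1 library are not replicates, so differences between stages are given as values with no p, and stage cannot be told apart from the capture run or the animals. Intervals on shares of cells are exact Clopper-Pearson intervals at 95% and cover counting error only. Where no cell held a gene, the limit given is that of 3 cells in the total, for cells with a detected transcript and not for cells expressing the gene. Sequencing depth is unknown. In its place, BP E18.5 cells had 1698 to 6819 genes at 1 TPM or more (median 4936), against medians of 4608 at E16.5 and 5239 at P0. Mitochondrial transcripts took a median of 7.41% of TPM in BP E18.5, against 8.52% at E16.5 and 6.27% at P0.

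The BP libraries differed in sex-linked transcripts, although all were labelled female. At 10 TPM or more, 48 of 61 BP E18.5 cells held Xist, the RNA of the inactive X chromosome. None held any of the Y-linked genes Ddx3y, Eif2s3y, Kdm5d and Uty, and 13 held neither kind. In BP E16.5, 24 cells held only Xist, 28 only Y-linked transcripts, 7 both and 20 neither. In BP P0 these were 32, 28, 9 and 6 cells. NBN E18.5, of the same labelled day, had 34 cells with only Xist, 21 with only Y-linked transcripts and 2 with both. Sex therefore moves with the stage comparisons. Cells with Xist and no Y-linked transcript numbered 48 at E18.5, 24 at E16.5 and 32 at P0. Values restricted to them are given for some of the results, not for all.

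**Figure D1:**
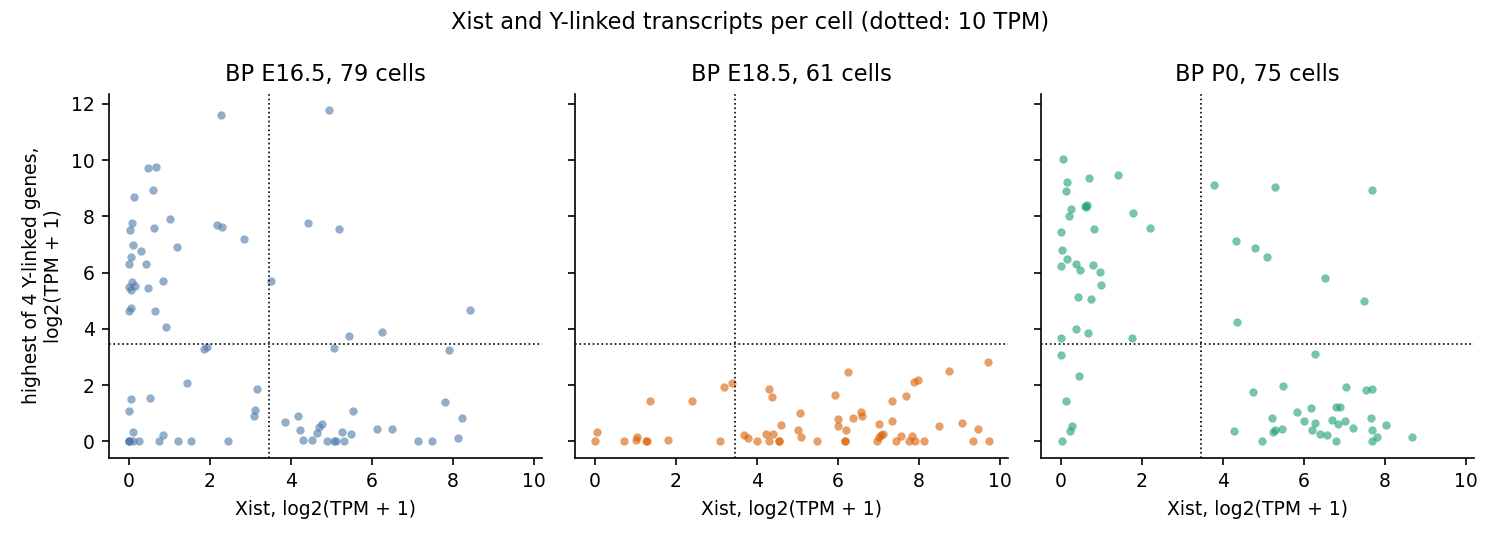
Each point is 1 cell, with Xist on the x axis and the highest of 4 Y-linked genes on the y axis, both in log2(TPM + 1), in BP E16.5, BP E18.5 and BP P0. Dotted lines mark 10 TPM; 28 cells at E16.5, 0 at E18.5 and 28 at P0 have Y-linked transcripts at 10 TPM or more and Xist under 10 TPM.

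Eomes, the T-box factor that defines basal progenitors (chromosome 9, 118478212 to 118486132, plus strand, GRCm38), stood at a lowest of 0.0105, a median of 9.13 and a highest of 1381 TPM in BP E18.5 cells. In NBN E18.5 cells the values were 0, 0.076 and 2195 TPM. Eomes reached 1 TPM in 46 of 61 BP E18.5 cells (75.4%, 62.7 to 85.5) and in 7 of 66 NBN E18.5 cells (10.6%, 4.37 to 20.6), so the intervals of the shares do not overlap although single cells do. At 10 TPM, Eomes was in 30 of 61 BP E18.5 cells (49.2%, 36.1 to 62.3) and in 1 of 66 NBN E18.5 cells. The label of the population therefore stood with its defining gene in most cells at 1 TPM, but not at 10 TPM.

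Rnd2, a small GTPase that acts in the migration of newborn projection neurons (chromosome 11, 101464999 to 101471853, plus strand), had 0, 138 and 4064 TPM as lowest, median and highest. It reached 1 TPM in 39 of 61 BP E18.5 cells (63.9%, 50.6 to 75.8), against 9 of 66 NBN E18.5 cells (13.6%). Of these 39 cells, 38 were also at 10 TPM or more, so few cells held Rnd2 at a low level. Rmst, a long noncoding RNA of neural progenitors, was at 0 in the median cell and 466 TPM in the highest. It reached 1 TPM in 11 of 61 BP E18.5 cells (18.0%, 9.36 to 30.0) and in 4 of 66 NBN E18.5 cells (6.06%). Cux2, a homeobox factor of upper-layer neurons and their progenitors (chromosome 5, 121856366 to 122050102, minus strand), had a median of 45.7 TPM in BP E18.5 and reached 1 TPM in 80.3% of cells (68.2 to 89.4), the same share as in NBN E18.5 (80.3%). Of the 4 markers, Cux2 thus did not separate these libraries by share. Rmst marked a minority of cells in both, and its shares are not read as separating them.

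Against the earlier and later basal progenitors, the marker levels moved in different directions. Eomes averaged 259 TPM at E16.5, 172 at E18.5 and 119 at P0, and its share at 1 TPM was 81.0%, 75.4% and 54.7%, with an interval of 42.7 to 66.2 at P0. Rnd2 averaged 508, 482 and 559 TPM at the same stages. Rmst averaged 80.0 TPM at E16.5, 25.0 at E18.5 and 30.5 at P0, with 29 of 79, 11 of 61 and 15 of 75 cells at 1 TPM. Cux2 averaged 60.6, 89.9 and 89.3 TPM, and its share at 1 TPM was 86.1%, 80.3% and 90.7%. At 10 TPM, 32 of 79, 38 of 61 and 58 of 75 cells held Cux2, so the order of E16.5 and E18.5 turned with the limit. This order also turned at 1 TPM in cells with Xist and no Y-linked transcript, with 62.5% at E16.5 and 79.2% at E18.5. These orders are descriptions of 1 library each.

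**Figure D2:**
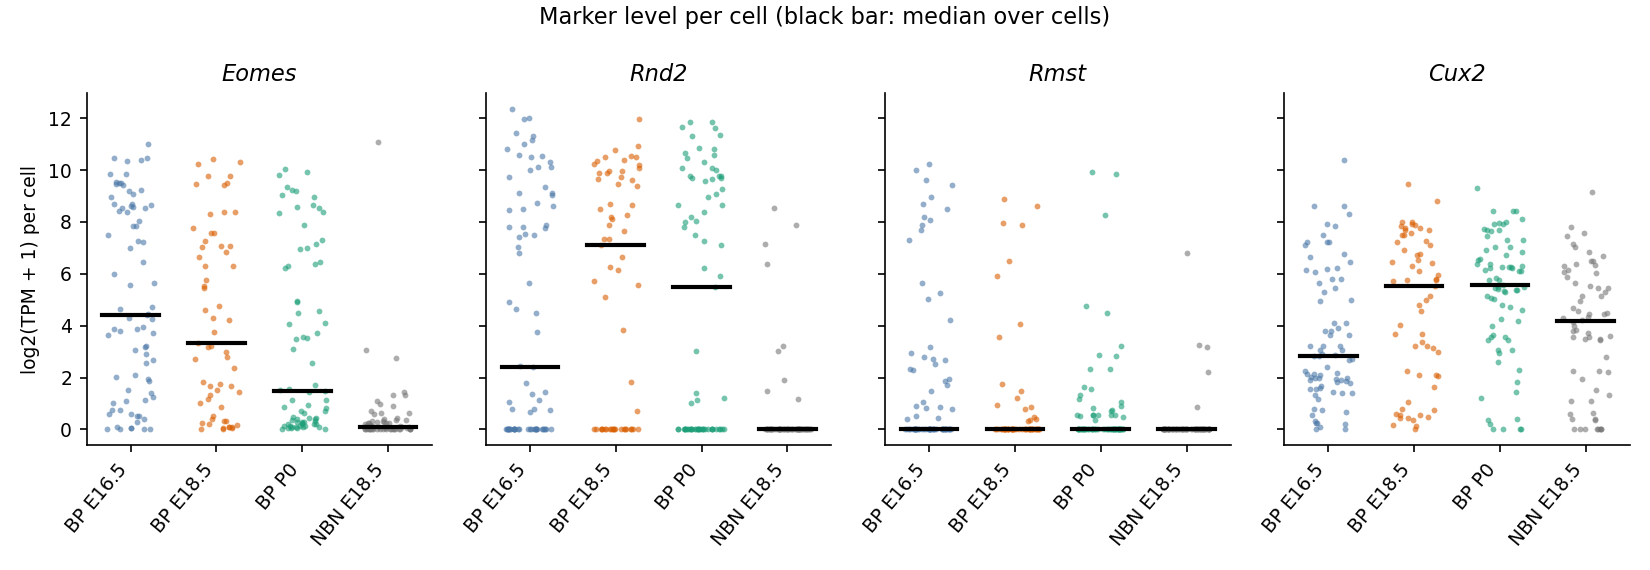
Each point is 1 cell in log2(TPM + 1), with 1 panel each for Eomes, Rnd2, Rmst and Cux2 and the libraries BP E16.5, BP E18.5, BP P0 and NBN E18.5 along the x axis; black bars are medians. BP cells spread from 0 to over 1000 TPM for Eomes and Rnd2, whereas the NBN medians of both lie near 0.

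A value at 1 TPM is not read as expression for every gene. The melanocortin receptor gene Mc1r reached 1 TPM in 61 of 61 BP E18.5 cells (median 11.3 TPM) and in 66 of 66 NBN E18.5 cells. Cx3cr1, a microglial receptor gene, reached 1 TPM in 55 of 61 cells (median 5.10 TPM). No BP E18.5 cell held 3 microglial markers at 10 TPM, so such low, widespread values are not read as expression, and counts at 10 TPM are given beside those at 1 TPM. Mc1r itself reached 10 TPM in 40 of 61 cells and Cx3cr1 in 15, so 10 TPM does not clear such values for every gene.

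The other genes of the basal progenitor program were carried by subsets of cells. Neurog2, the proneural factor upstream of Eomes, reached 10 TPM in 4 of 61 BP E18.5 cells and averaged 2.60 TPM, against 18 of 79 cells and 18.9 TPM at E16.5. Insm1, a zinc finger factor of progenitors that leave the ventricle, reached 10 TPM in 23 cells (mean 34.3 TPM, against 34.0 at E16.5 and 32.9 at P0). Neurod1, a bHLH factor downstream of Neurog2, reached 10 TPM in 39 cells and averaged 321 TPM, against 188 at E16.5 and 191 at P0. The somatostatin receptor gene Sstr2 was in 30 cells at 10 TPM (mean 292 TPM, against 287 at E16.5 and 323 at P0). Insm1 and Sstr2 thus had means of like size at the 3 stages, while the difference of Neurog2 against E16.5 was −2.47 in log2(mean TPM + 1). Neurog1, the sister factor of Neurog2, was listed at 0 in all 61 cells, which allows a share of up to 4.92%.

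Btg2, an antiproliferative gene of neuron-producing progenitors, had a lowest of 0, a median of 0 and a highest of 1248 TPM in BP E18.5 cells, against 0, 49.9 and 4673 TPM at E16.5. Its mean was 84.4 TPM in BP E18.5, 298 at E16.5 and 150 at P0. Mfng, a glycosyltransferase that modifies Notch, averaged 33.8 TPM in BP E18.5, against 119 at E16.5 and 58.7 at P0. Both genes were at 10 TPM in fewer BP E18.5 cells (17 and 12 of 61) than BP E16.5 cells (45 and 20 of 79). Hes6, an inhibitor of Hes1 activity, averaged 107 TPM in BP E18.5, against 67.7 at E16.5 and 67.3 at P0. The Notch ligand gene Dll1 averaged 50.6 TPM, but 1 cell at 2878 TPM carried most of this and only 4 cells reached 10 TPM.

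Over the whole list of 17 basal progenitor genes, 16 reached a mean of 10 TPM in BP E18.5 or BP E16.5. Of these, 1 was 2-fold or more higher in BP E18.5 and 4 were lower, with a median difference of 0.02, against 0.12 over all genes. The sign of this median changed between settings, which gave −0.41 to 0.20, and in cells with Xist and no Y-linked transcript 5 of 16 genes were higher and 6 lower. The background of the same 2-fold rule was 18.9% higher and 15.3% lower of 9439 genes. Against P0, 2 of 15 were higher and 0 lower, with a median of 0.06, against −0.08 over all genes and a background of 12.9% higher and 17.6% lower of 9565 genes. A cell held 1 to 9 of the 17 genes at 10 TPM or more, with a median of 5, in BP E18.5, and 0 to 8 with a median of 2 in NBN E18.5.

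The Notch target genes of stem cells were nearly undetected. The Notch target Hes1 was at 0 in all 61 BP E18.5 cells, which allows a share of up to 4.92%, and Hes5 reached 5.10 TPM in 1 cell. Vim, an intermediate filament gene of radial glia, was at 1 TPM in 8 of 61 BP E18.5 cells (mean 12.3 TPM), against 31 of 79 at E16.5 (67.1 TPM) and 8 of 75 at P0 (25.8 TPM). The glutamate transporter gene Slc1a3 was in 9 cells (13.3 TPM), against 20 at E16.5 (75.8 TPM) and 24 at P0 (51.4 TPM). Sox2, a stem cell factor, was in 10 cells at 10 TPM (mean 11.7 TPM), and Fabp7, a fatty acid binding protein of radial glia, in 23 cells (mean 355 TPM, highest 3107). Of 9 radial glia genes that reached the filter, 3 were higher and 2 lower than at E16.5, with a median of 0.22. The sign of this median changed between settings, which gave −1.61 to 0.37. It was −0.35 in cells with Xist and no Y-linked transcript, with 3 of 8 genes higher and 3 lower. Against P0, 2 of 11 were higher and 4 lower, with a median of 0.19, and settings gave −0.24 to 0.40. The shares of all genes were 18.9% higher and 15.3% lower against E16.5, and 12.9% and 17.6% against P0.

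Pax6, a paired-box factor of radial glia, was at 10 TPM or more in every one of the 61 cells, with 10.8, 38.1 and 944 TPM as lowest, median and highest. It was also at 10 TPM in all 79 and all 75 cells of BP E16.5 and BP P0, and in 47 of 66 NBN E18.5 cells (median 14.52, highest 67.5 TPM). The lower part of its range falls in the range of Mc1r above.

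Every BP E18.5 cell held transcripts of the neuronal program, at least 4 of 15 newborn neuron genes at 10 TPM. Dcx, a microtubule protein of migrating neurons, reached 10 TPM in 60 of 61 BP E18.5 cells (median 473 TPM), against 77 of 79 at E16.5 (381 TPM) and 72 of 75 at P0 (503 TPM). Neurod6, a bHLH factor of cortical excitatory neurons, reached 10 TPM in 55 of 61 cells and averaged 1261 TPM, and Tbr1, a T-box factor expressed after Eomes, reached 10 TPM in 32 cells (mean 65.5 TPM). A BP E18.5 cell held 4 to 14 of 15 newborn neuron genes at 10 TPM, with a median of 10, against 2 to 15 with a median of 12 in NBN E18.5. All 15 genes were tested by size: 2 were higher and 1 lower than at E16.5 (median 0.00), and 2 higher and 0 lower than at P0 (median −0.17). Among all genes, 18.9% were higher and 15.3% lower than at E16.5, and 12.9% and 17.6% than at P0.

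Some neuronal genes set the BP and NBN libraries of E18.5 apart, as descriptions of 1 library each. Dab1, the adaptor of the Reelin pathway, had a highest of 498 TPM and was at 10 TPM in 4 of 61 BP E18.5 cells, against a highest of 1969 TPM and 55 of 66 NBN E18.5 cells. Mef2c, a MADS-box factor of maturing upper-layer neurons, averaged 1.64 TPM in BP E18.5 and 497 TPM in NBN E18.5, and was at 10 TPM in 4 of 61 and 51 of 66 cells. The ranges of single cells overlapped for both genes.

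The synaptic gene Gria2, an AMPA receptor subunit, was already at 10 TPM in 56 of 61 BP E18.5 cells (mean 292 TPM), and Snap25, a vesicle fusion protein, in 48 cells (mean 465 TPM). Syt1, the calcium sensor of vesicle release, was at 10 TPM in 5 cells (mean 6.48 TPM), against 23 of 66 NBN E18.5 cells (60.4 TPM). Of 13 synaptic genes that reached the filter, 1 was higher and 1 lower than at E16.5, beside 18.9% and 15.3% of all genes. Their median was 0.02. It was 0.65 in cells with Xist and no Y-linked transcript, against 0.18 over all genes, with 3 of 14 genes higher and 3 lower.

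Within BP E18.5, Eomes was at 10 TPM in 30 cells and under it in 31, and most other genes of the lineage were found on both sides. Rnd2 was at 10 TPM in 18 of 30 cells with Eomes and in 20 of 31 without, and Neurod1 in 18 and 21. Neurod6 was in 25 of 30 and 30 of 31 cells, and Neurog2 in 3 and 1. At P0, Rnd2 was in 22 of 32 cells with Eomes (68.8%) and in 16 of 43 without (37.2%), against 60% and 64.5% of the BP E18.5 cells. At E16.5 it was in 20 of 48 cells with Eomes (41.7%) and in 18 of 31 without (58.1%). Eomes did not follow the number of genes per cell (Spearman's rho 0.07 over 61 cells) or the mitochondrial share (0.01). Correlations are over cells of 1 library and are given as descriptions.

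Among 7876 genes ranked by Spearman's rho with Eomes over the 61 cells, Pax6 came first at 0.55 (0.34 at E16.5 and 0.19 at P0). It was followed by Ttc19, a mitochondrial complex III protein, at 0.53 (−0.04 and 0.02) and by the bHLH repressor gene Bhlhe41 at 0.51 (0.27 and 0.09). Mc1r stood seventh at 0.43, so genes with background values were among the leaders. At the other end stood Gria2 at −0.54 (−0.31 at E16.5 and −0.16 at P0), the adhesion gene Ncam1 at −0.49 (−0.22 and −0.20) and the semaphorin receptor gene Nrp1 at −0.48 (−0.42 and −0.38). Gria2 was at 10 TPM in 25 of 30 cells with Eomes and in all 31 cells without it. Of these, Nrp1 had values of like size at all 3 stages.

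**Figure D3:**
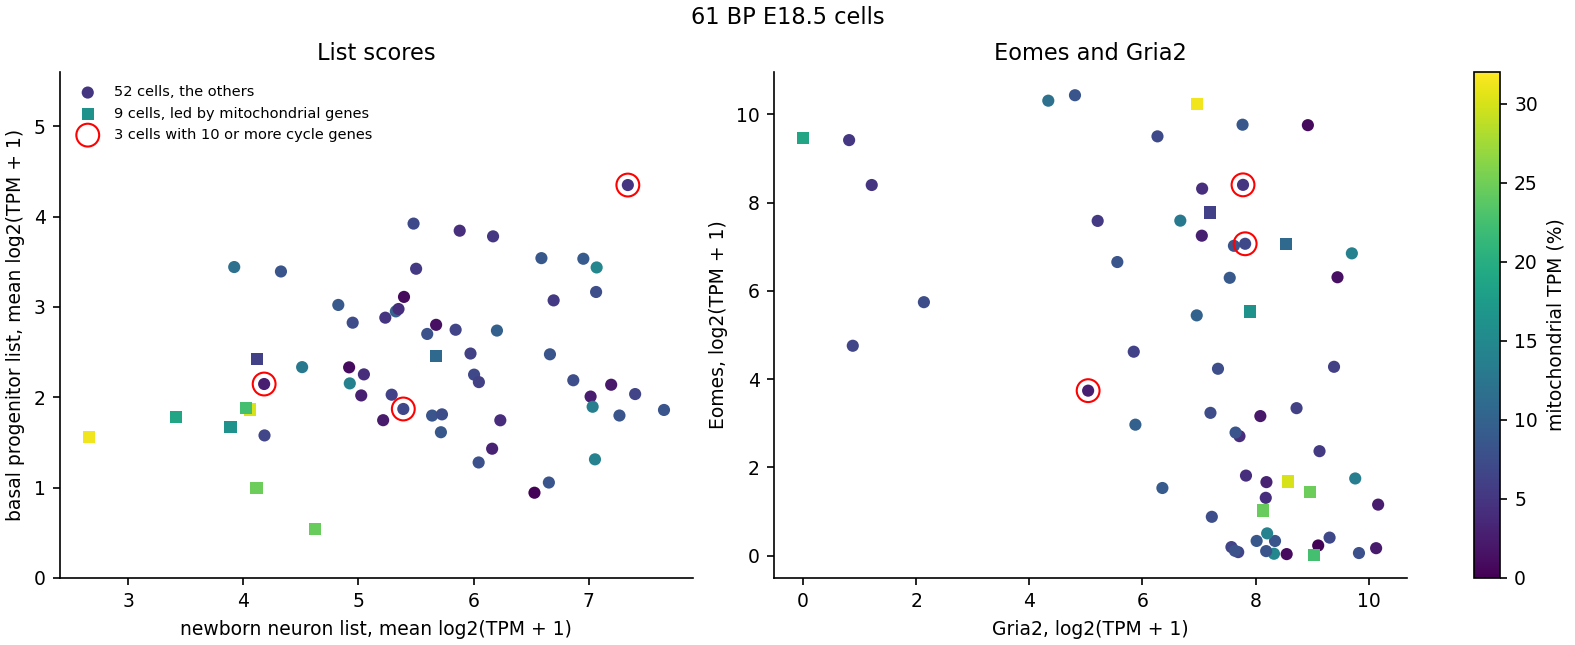
Each point is 1 of 61 BP E18.5 cells, coloured by the mitochondrial share of TPM; squares are the 9 cells of the smaller cluster and red rings the 3 cells with cell cycle genes. The left panel sets the mean log2(TPM + 1) of 17 basal progenitor genes against that of 15 newborn neuron genes, and the right panel sets Eomes against Gria2, where 25 of the 30 cells with Eomes at 10 TPM or more hold Gria2 at that level.

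Clustering gave 2 groups of cells with a mean silhouette of 0.32. The smaller group of 9 cells had 1698 to 4014 genes (median 3229) and a median mitochondrial share of 22.5%. The larger group of 52 cells had 3363 to 6819 genes and a median share of 6.95%. Among the leading genes of the 9 cells were the mitochondrial genes mt-Nd4, mt-Nd2, mt-Nd1 and mt-Co1, and Rab3gap1, a vesicle transport regulator. The 52 cells were led by housekeeping genes such as Oaz1, Rplp0 and Rps14. Eomes was at 10 TPM in 5 of 9 and 25 of 52 cells, Neurod6 in 8 and 47, and Rnd2 in 6 and 32. Several list scores, each the mean log2(TPM + 1) over a list, were lower in the 9 cells, beside their fewer genes. Not all were: the score of Wnt pathway genes had a median of 1.63 in the 9 cells and 1.55 in the 52 cells. The upper-layer score had a median of 1.97 in the 9 cells and 3.86 in the 52 cells, the newborn neuron score 4.06 and 5.86, the basal progenitor score 1.78 and 2.29 and the deep-layer score 1.29 and 1.499. The genes of these lists were among those clustered, so the scores are no test. The groups are left unnamed, since the leading genes of the 9 cells are no cell type's markers.

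Few cells expressed cell cycle programs. With a limit of 10 genes of a cycle list at 10 TPM in a cell, chosen after the values were seen, 3 of 61 BP E18.5 cells counted (4.92%, 1.03 to 13.7). The first held 18 of 20 G2/M genes and 12 of 19 G1/S genes, with Eomes at 337 TPM and Neurod6 at 1584 TPM. It also had the most genes of the library, 6819, and no doublet caller was run. The second held 15 G2/M genes, with Eomes at 12.3 TPM and Pax6 at 944 TPM, the highest Pax6 value of the library. The third held 16 G1/S and 7 G2/M genes with Eomes at 133 TPM. All 3 therefore held Eomes, and 57.5% of the summed G2/M transcripts lay in the 2 cells with G2/M genes.

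By the same limit, 14 of 72 basal progenitors at E12.5 (19.4%, 11.1 to 30.5) counted, 1 of 45 at E14.5, 3 of 79 at E16.5 and 5 of 75 at P0. The interval at E18.5 overlaps those of all 4 other stages. Mki67, a marker of cycling cells, was at 10 TPM in 7 of 61 BP E18.5 cells, against 7 of 79 at E16.5 and 8 of 75 at P0. By the 2-fold rule, 18.9% of all genes were higher and 15.3% lower than at E16.5, and 12.9% and 17.6% than at P0. Of 18 G2/M genes, 3 were higher and 4 lower than at E16.5 (median −0.08), and of 19, 0 were higher and 8 lower than at P0 (median −0.69). With the mean of log2(TPM + 1) over cells, 0 were higher and 0 lower than at P0, with a median of −0.21, as over all genes, and without cells holding markers of another type 3 of 17 were lower (median −0.31). The 4 P0 cells with G2/M genes carried 79.3% of the summed G2/M transcripts of that library. In cells with Xist and no Y-linked transcript, 10 of 15 G2/M genes were higher than at E16.5 (median 2.49); the count of this list thus changed with the cells kept.

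Among S phase genes, Mcm7, a subunit of the replication helicase, averaged 303 TPM in BP E18.5, against 43.8 TPM at E16.5 and 309.6 TPM at P0. Of 15 G1/S genes, 5 were higher and 0 lower than at E16.5, beside 18.9% and 15.3% of all genes. Their median was 0.69, against 0.12 over all genes. With the mean of log2(TPM + 1) over cells, however, 1 of 15 was higher and the median was 0.21. The cyclin-dependent kinase inhibitor gene Cdkn1b was at 10 TPM in 56 of 61 BP E18.5 cells (mean 105.3 TPM), against 64 of 79 at E16.5 (61.7 TPM) and 70 of 75 at P0 (101 TPM). Cdk4, the G1 kinase partner of D cyclins, averaged 525 TPM in BP E18.5, against 994 at E16.5 and 750 at P0.

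More upper-layer genes were higher than lower in BP E18.5 against BP E16.5. Pou3f2, a POU factor that specifies upper-layer neurons (chromosome 4, 22482780 to 22488366, minus strand), had 1.25, 355 and 2415 TPM as lowest, median and highest in BP E18.5 cells. In BP E16.5 cells the values were 0, 17.1 and 1794 TPM, and in BP P0 cells 1.80, 502 and 2947 TPM. Pou3f2 was at 10 TPM in 51 of 61 cells, against 42 of 79 and 69 of 75, and single cells of all 3 libraries overlapped. The difference of the means was 2.01 against E16.5 and 0.01 against P0 in log2(mean TPM + 1), a scale on which the added 1 shrinks the differences of low genes.

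The other members were Pou3f3, at a mean of 119 TPM in BP E18.5, against 54.7 at E16.5 and 138 at P0, and Cux1 at 174 TPM, against 41.8 and 134.9. The netrin receptor family gene Unc5d averaged 161 TPM, against 75.6 and 211, and the nuclear receptor gene Rorb 21.8 TPM, against 8.62 and 16.6. In Cux1 a single cell at 3480 TPM weighed on the mean: the median was 5.53 TPM in BP E18.5, 1.86 at E16.5 and 30.6 at P0. The list as a whole had 5 of 9 genes higher and 1 lower than at E16.5, beside 18.9% and 15.3% of all genes. Its median was 1.08, against 0.12 over all genes. Against P0, 0 of 9 were higher and 2 lower, beside 12.9% and 17.6% of all genes, with a median of −0.21. Mef2c was lower by the largest amount (−3.36, mean 1.64 TPM in BP E18.5 and 26.2 TPM at P0). In cells with Xist and no Y-linked transcript, the median against E16.5 was 1.74, with 6 of 8 genes higher and 0 lower. The median stayed above 0 under all 12 alternatives, while the count of higher genes was 2 with a pseudocount of 10 and 3 with libraries scaled to the median ratio. With all deposited cells, near-empty ones included, 3 of 9 were higher and 3 lower, so the excess of higher genes was lost, and Pou3f3 (−1.92) and Rorb (−1.71) changed sign.

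More deep-layer genes were lower than higher against E16.5. Fezf2, the factor of subcerebral projection neurons, had 0, 0 and 243 TPM as lowest, median and highest in BP E18.5, against 0, 0.46 and 714 TPM at E16.5. Its mean was 8.41 TPM in BP E18.5, 35.6 at E16.5 and 14.49 at P0, with 5 of 61, 22 of 79 and 10 of 75 cells at 10 TPM. Bcl11b, which acts downstream of Fezf2, averaged 13.3 TPM in BP E18.5, against 31.9 at E16.5 and 12.7 at P0, with 9, 25 and 8 cells at 10 TPM. Foxp2, a forkhead factor of layer 6 neurons, averaged 25.7 TPM in BP E18.5, against 77.0 at E16.5 and 31.0 at P0. Tle4, a corepressor of layer 6 neurons, went the other way at 35.9 TPM in BP E18.5, against 15.8 at E16.5 and 8.80 at P0, with a highest cell of 908 TPM. Of 7 deep-layer genes, 1 was higher and 3 lower than at E16.5, beside 18.9% and 15.3% of all genes, with a median of −0.67. The median was −0.09 in cells with Xist and no Y-linked transcript, with 0 higher and 2 lower of 8. Against P0, 1 of 7 was higher and 1 lower (median −0.26), beside 12.9% and 17.6% of all genes. In the cells with Xist and no Y-linked transcript, 4 of 8 were higher and 0 lower than at P0 (median 0.86).

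**Figure D4:**
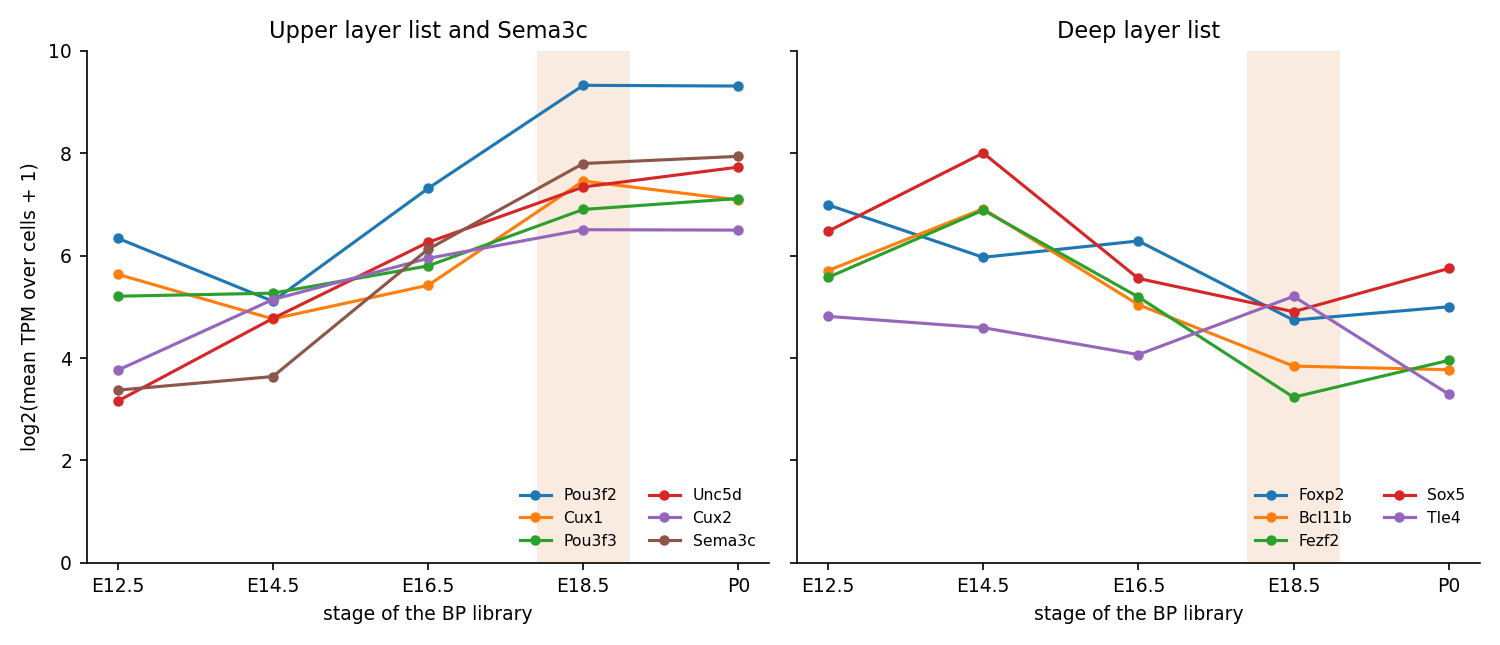
Lines give log2(mean TPM + 1) in the 5 BP libraries from E12.5 to P0, which are spaced evenly on the x axis, with BP E18.5 shaded. The left panel shows Pou3f2, Cux1, Pou3f3, Unc5d, Cux2 and Sema3c and the right panel Foxp2, Bcl11b, Fezf2, Sox5 and Tle4; Pou3f2 averages 158 TPM at E16.5, 640 at E18.5 and 634 at P0, and Fezf2 35.6, 8.41 and 14.49 TPM.

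Genes of migration and axon guidance formed no single direction. Sema3c, a secreted semaphorin (chromosome 5, 17574281 to 17730268, plus strand), had 0, 77.0 and 1705 TPM as lowest, median and highest in BP E18.5, against 0, 1.11 and 958 TPM at E16.5. Its mean was 222 TPM in BP E18.5, 68.8 at E16.5, 244 at P0 and 34.6 in NBN E18.5, with 46 of 61, 27 of 79 and 57 of 75 BP cells at 10 TPM. Robo1, a Slit receptor, averaged 37.3 TPM in BP E18.5, against 6.44 at E16.5 and 37.7 at P0. Sema3a, a repulsive semaphorin, averaged 107 TPM in BP E18.5, against 48.5 at E16.5 and 173 at P0. Flrt2, an adhesion protein that binds Unc5 receptors, averaged 2.03 TPM in BP E18.5, against 44.3 at E16.5 and 15.7 at P0. Few cells carried Flrt2 at 10 TPM, 5 of 61 in BP E18.5 and 7 of 79 at E16.5. The shares of all genes were 18.9% higher and 15.3% lower against E16.5, and 12.9% and 17.6% against P0. Of 21 migration and axon guidance genes, 4 were higher and 3 lower than at E16.5 (median 0.09). Against P0, 0 of them were higher and 3 lower (median −0.21). In cells with Xist and no Y-linked transcript, 9 were higher and 1 lower than at E16.5 (median 0.93).

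Sox11, a SoxC factor of new neurons, averaged 86.1 TPM in BP E18.5, against 21.1 at E16.5 and 29.4 at P0, and its median was 14.0, 1.65 and 8.67 TPM. A single cell at 2442 TPM weighed on the BP E18.5 mean. Gap43, a growth cone protein, averaged 62.4 TPM in BP E18.5, against 257 at E16.5 and 116 at P0, with 16 of 61, 41 of 79 and 24 of 75 cells at 10 TPM.

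Markers of other cell types were scarce in BP E18.5 and differed between the libraries. Cells with at least 3 markers of another type at 10 TPM numbered 3 of 61 in BP E18.5 (1 Cajal-Retzius, 2 astroglial), 13 of 79 at E16.5 (8 of them Cajal-Retzius) and 4 of 75 at P0. The 9 Cajal-Retzius markers summed to a mean of 44.5 TPM per BP E18.5 cell (0 to 1368), against 194 at E16.5 (0.40 to 2216) and 73.0 at P0 (0.40 to 1180). Reln was at 10 TPM in 1 of 61 cells in BP E18.5 and 11 of 79 at E16.5, and Trp73 in 1 and 9. The 11 astroglial markers summed to 160.4 TPM (0.0015 to 1332) in BP E18.5, against 64.0 at E16.5 (0.031 to 1247) and 174.8 at P0 (0.065 to 2398), with Aldoc at 0 in all BP E18.5 cells. The 7 erythroid markers summed to 4.11 TPM in BP E18.5, against 56.8 at E16.5 and 8.14 at P0, and the interneuron markers to 40.2 TPM, against 57.9 and 23.7. Without these cells the upper-layer median against E16.5 was 0.89, with 3 of 9 genes higher, and the deep-layer median was −0.76, with 3 of 7 lower. The part of these markers in other results was not tested.

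Across all genes, 1783 of 9439 were 2-fold or more higher and 1442 lower in BP E18.5 than in BP E16.5. Scaling the libraries to their median ratio, which moved the median of all genes by 0.12, gave 1546 higher and 1645 lower. With an added requirement that the share of cells at 1 TPM differed by at least 20 percentage points the same way, 62 genes (0.657%) were higher and 58 (0.614%) lower. With all deposited cells these were 122 and 25, and in cells with Xist and no Y-linked transcript 140 and 248. The 15 genes with the largest difference of mean log2(TPM + 1) each way were taken as the named genes; 9 of the higher and 11 of the lower ones met the rule in cells with Xist and no Y-linked transcript.

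Among the named higher genes, Xist averaged 138 TPM in BP E18.5 and 32.8 TPM at E16.5, beside the sex difference above. Xist was also higher in cells with Xist and no Y-linked transcript, by a log2 difference of 1.08. Sema3c was the named gene of axon guidance. The homeodomain zinc finger gene Zfhx4 averaged 117 TPM in BP E18.5 and 29.6 TPM at E16.5, with 30 of 61 and 19 of 79 cells at 10 TPM. Jarid2, a cofactor of the Polycomb complex PRC2, averaged 219 and 57.6 TPM in the same libraries, with 32 and 34 cells at 10 TPM and a highest cell of 4105 TPM in BP E18.5. Fam84a averaged 237 and 70.5 TPM, Qdpr, which recycles tetrahydrobiopterin, 159 and 54.7 TPM, and the tryptophanyl-tRNA synthetase gene Wars 171 and 25.7 TPM. Mid1, an X-linked ubiquitin ligase gene, averaged 41.2 and 13.0 TPM, a log2 difference of 1.59, which was 0.21 in cells with Xist and no Y-linked transcript. Scrn1, Pitpnc1, AI314180, Smpd3, Cyth1, Eif5b and Phrf1 completed the 15.

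The named lower genes included Egr1, an immediate early factor, with 0, 0 and 3633 TPM as lowest, median and highest in BP E18.5 cells, against 0, 209 and 6902 TPM at E16.5. Egr1 was at 10 TPM in 19 of 61 and 50 of 79 cells, and in 27 of 75 cells at P0. Of 8 immediate early and stress genes, 1 was higher and 2 lower than at E16.5, beside 18.9% and 15.3% of all genes. Their median was −0.49. It was −1.12 in cells with Xist and no Y-linked transcript, with 1 of 8 genes higher and 5 lower. Btg2 was also among the 15. Runx1t1, a corepressor gene of neuronal differentiation, averaged 28.7 TPM in BP E18.5 and 171 TPM at E16.5, with 15 of 61 and 35 of 79 cells at 10 TPM. The Rac exchange factor gene Tiam2 averaged 25.6 and 92.4 TPM in these libraries, the ciliary transport gene Ift88 4.38 and 63.7 TPM, and the isoleucyl-tRNA synthetase gene Iars 8.42 and 64.5 TPM. Eif2s3y, a Y-linked translation factor gene, averaged 0.0245 and 89.6 TPM. Pgk1 and its near-identical copy Pgk1-rs7 were also listed, and reads split between such copies make their values uncertain. Psmb5, Dfna5, E130309F12Rik, Cspp1, Lancl1 and Uqcr10 completed the 15.

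**Figure D5:**
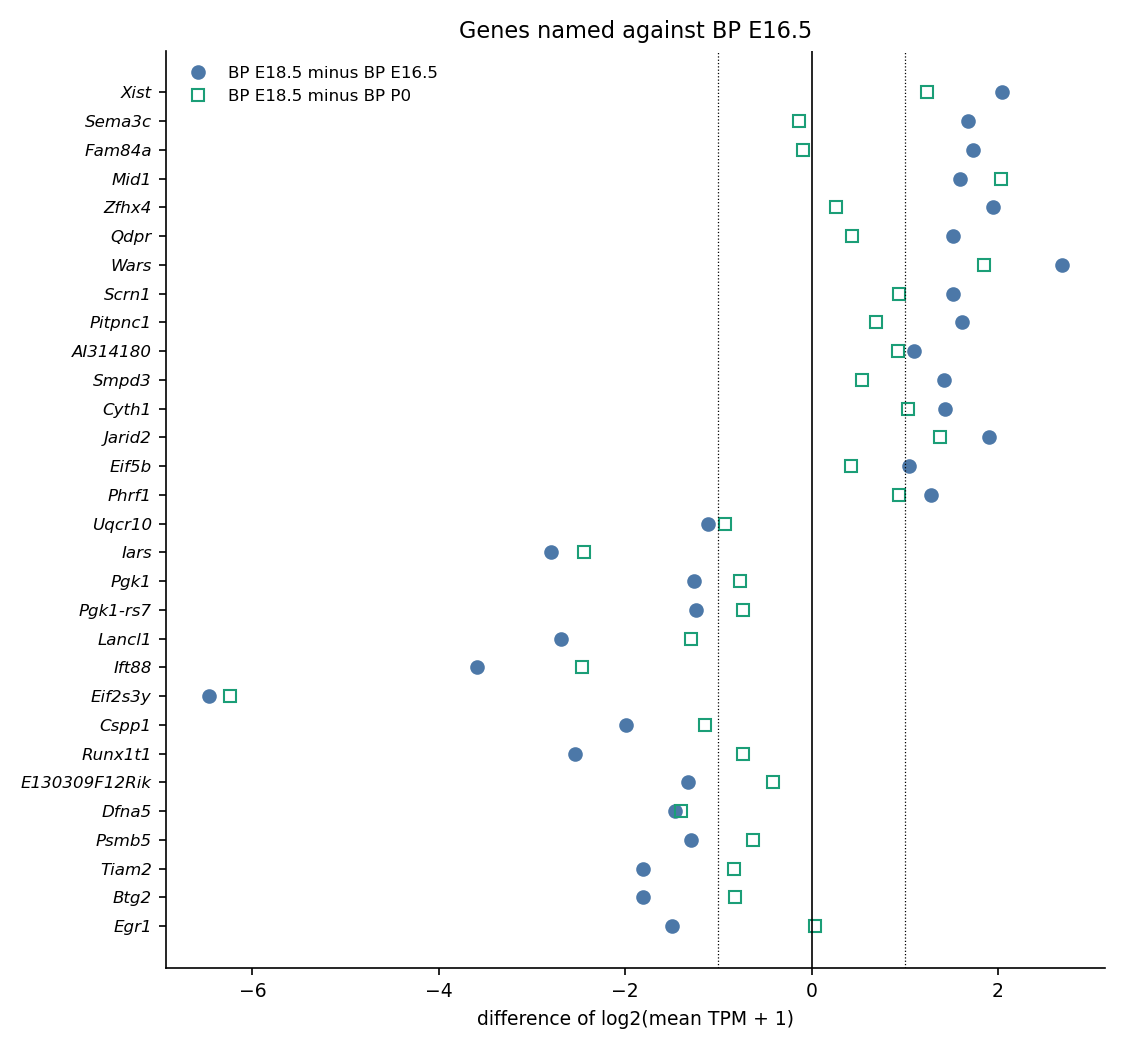
The 30 genes named in the comparison with BP E16.5 run down the page, and the x axis is the difference of log2(mean TPM + 1). Filled circles are BP E18.5 minus BP E16.5 and open squares BP E18.5 minus BP P0; Xist is at 2.04 and 1.24, and Sema3c at 1.67 and −0.14.

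Against BP P0, 1238 of 9565 genes were 2-fold or more higher in BP E18.5 and 1680 lower, so that 42.4% of these genes were higher. That split depended on how cells were averaged: it was 8.66% with the mean of log2(TPM + 1) over cells, 25.9% with a mean that left out the extreme cells, and 50.3% in cells with Xist and no Y-linked transcript. With the added requirement on shares, 5 genes (0.0523%) were higher and 108 (1.13%) lower. Over all tested genes the share of cells at 1 TPM was lower in BP E18.5 by a median of 3.91 percentage points, beside the difference in genes per cell given above. Without cells at 15% mitochondrial TPM or more, 9 were higher and 82 lower, and 5 of the 15 named lower genes still met the rule.

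The 5 genes higher than at P0 were Xist (138 against 58.0 TPM), Mid1 (41.2 against 9.30 TPM), the phosphatidylserine synthase gene Ptdss1 (94.4 against 34.9 TPM), the deacetylase gene Sirt1 (32.3 against 13.2 TPM) and Dok4 (32.9 against 13.53 TPM). None of the 5 met the rule in cells with Xist and no Y-linked transcript, where 48 genes were higher and 141 lower. The lower genes were led by Commd3 (196 TPM in BP E18.5 and 402 TPM at P0), Commd4 (132 and 347 TPM) and the imprinted splicing protein gene Snrpn (130 and 272 TPM). Snrpn was at 10 TPM in 34 of 61 BP E18.5 cells and 61 of 75 BP P0 cells. Others of the 15 were the translocon-associated Ssr3 (198 and 431 TPM), Hsd17b12, which acts in fatty acid elongation (132 and 325 TPM), and the guanine nucleotide enzyme gene Impdh2 (80.2 and 248 TPM). None of the 15 named lower genes is on the progenitor or layer lists.

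Whether BP E18.5 departed from the course of the other basal progenitor stages was tested with limma over all 17 libraries, with a line on age in each population. At an adjusted p of 0.05, 0 of 14099 genes departed upward and 0 downward (0%), and 353 genes (2.5%) had an unadjusted p under 0.05. On data simulated for this test, 8% of departures of 2 log2 units were recovered, 36% of 4, 68% of 6 and 90% of 8, over 14099 genes. In the same simulation, 8 genes without a departure were called as well. Pou3f2 stood 0.93 ± 0.99 (SE) above the line and Sema3c 0.59 ± 2.10. Fezf2 stood at −1.34 ± 1.32 and Eomes at 0.29 ± 1.54. The smallest adjusted p, 0.104, belonged to the interferon-induced gene Mx1, named after its value was seen, at 6.00 ± 0.90 above the line. Mx1 stood at 6.63 log2(mean TPM + 1) in BP E18.5 and at 0.05 in NBN E18.5. None of these departures passed, and with 1 library at this stage the fit assumes that it varies like the others.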

How the data were processed

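Single cells were sorted, captured on a Fluidigm C1 array, amplified with the SMARTer kit and sequenced as single reads, per the labels' protocols. The deposited tables hold TPM per gene and cell, made by the authors with kallisto 0.43.0 and the builds GRCm38.p2 and mm10, per the submitters' processing notes. A few near-empty deposited columns hold only whole numbers and were named a score; none is in BP E18.5. TPM keep no depth, so no count model was fitted, and precision is given by cells and genes per cell. Of 23078 gene IDs, 22361 matched GENCODE M21, whose GRCm38 coordinates are printed.

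A library is all kept cells of 1 population at 1 stage, and the labels name no animals. Its value was log2 of the mean TPM plus a pseudocount of 1. In the stage comparisons, genes with a mean of 10 TPM in either library were tested by size, at a 2-fold limit. The named genes also differed by 20 points in the share of cells at 1 TPM, and up to 15 each way were taken by the difference of mean log2(TPM + 1); members of the gene lists are named beside them. The members and lists were chosen with earlier results of these data known, and genes outside them are said to be so.

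Departures from the age line used limma 3.58.1 in R 4.3.3 (eBayes with a trend, two-sided, Benjamini-Hochberg over all genes with a mean of 1 TPM in at least 4 libraries). The p-values measure the spread between libraries around their lines, which may be technical. The script was tested on simulated data. Cells were clustered by Ward's method on 10 principal components of the 1000 most variable genes (scikit-learn 1.9.0), with k of 2 to 5 chosen by silhouette. Tables were made in Python 3.11.15 with SciPy 1.17.1 for intervals, pandas 2.3.3 and NumPy 2.4.6. Doublets were not called. Results of 1 gene are not reported here. Alternatives changed the pseudocount, filter, averaging, scaling, cells kept, libraries and clustering; the cells without high mitochondrial shares and the cells with Xist and no Y-linked transcript were alternatives chosen after seeing the data.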

Additional observations from a re-analysis of the deposited data

Results flagged for a closer look

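Among the 5 BP libraries, BP E18.5 stood far from the other 4 in 4 of 300 genes checked. By chance the rule flags about 1 gene in 20 for any of the 5 libraries together, and fewer for BP E18.5 alone. That rate is for genes not picked from these data. The genes checked include the named genes, picked because BP E18.5 differed from BP E16.5 or BP P0, so the rate is no yardstick here. Jarid2 and Eif2s3y are among the named genes. Sox11 averaged 86.1 TPM in BP E18.5, above the other 4 libraries, with 1 cell at 2442 TPM. Jarid2 averaged 219 TPM, above the other 4, with 1 cell at 4105 TPM. The Y-linked genes Eif2s3y (0.0245 TPM) and Uty (0.189 TPM) stood below the other 4, beside 0 BP E18.5 cells with a Y-linked transcript at 10 TPM. By limma, the departure of Eif2s3y from the age line was −6.36 ± 2.20 (SE), and it did not pass after adjustment.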

How the results depend on the processing

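Of 173 differences of single genes, 84 stayed on the same side of the 2-fold limit under every alternative. Of those at 2-fold or more in the main setting, 13 changed sign under at least 1. Differences under 2-fold in the main setting were not checked for direction. The cause of these shifts was not tested. Counts against BP E16.5 became 1024 higher and 906 lower with a pseudocount of 10, 633 and 404 with a filter at 50 TPM, 283 and 229 with the mean of log2(TPM + 1), and 647 and 596 with a trimmed mean; without a filter, 2371 were lower. Against BP P0 they became 695 and 1000, 397 and 495, 60 and 633, and 340 and 975 under the same settings. Without a filter 1903 were higher and 2639 lower, and in cells with Xist and no Y-linked transcript 1892 were higher. Departures from the age line numbered 7 higher with a pseudocount of 10, 73 higher and 7 lower without a filter, 1 higher with a common slope, 1 lower with a pseudocount of 0.1, and 0 to 1 higher when a library was left out (1 without NBN P1).

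At 10 TPM in place of 1, the share with Eomes was 49.2% in BP E18.5, 60.8% at E16.5 and 42.7% at P0, with Cux2 62.3%, 40.5% and 77.3%, and with Rmst 20.3% at E16.5 and 6.67% at P0. In BP E16.5 cells with Xist and no Y-linked transcript, the shares were 95.8% for Eomes, 58.3% for Rmst and 62.5% for Cux2. The smaller cluster held 17 cells with 500 variable genes and 14 by k-means. Cells with markers of another type numbered 17 in BP E18.5, 30 at E16.5 and 20 at P0 with 2 markers at 10 TPM, and 34, 51 and 63 with 3 markers at 1 TPM.

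The sign changes given are those of differences of 2-fold or more in the main setting. Against E16.5, the log2 difference changed sign for Dll1 (−0.42) without cells of high mitochondrial share and for Neurod2 (−0.12) in cells with 3000 genes. It also did so with all cells for Pou3f3 (−1.92), Rorb (−1.71), Pgk1-rs7 (0.037) and Pgk1 (0.0051), and in cells with Xist and no Y-linked transcript for Mef2c (0.38) and Eif2s3y (0.024). Against P0 it did so with the mean of log2(TPM + 1) for Neurod4 (−0.15), Dll1 (−0.25) and Crym (0.0054), and with the trimmed mean for Dll1 (−0.45). Without cells holding markers of another type Neurod4 was at −2.76, and without cells of high mitochondrial share Dll1 was at −2.38 and Dok4 at −0.12. In cells with 3000 genes Neurod2 was at −0.18, and in cells with Xist and no Y-linked transcript Neurod2 was at −0.35 and Crym at 4.03. With all cells, BP E16.5 includes 4 near-empty columns of whole numbers. No paired analysis was possible because the replicate numbers only count the cells of a library, and BP E18.5 is 1 library. With depth unknown, a gene at 0 in all 61 cells may still be expressed in some.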
